A study of Arabidopsis thaliana with 26 samples.

Results

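Developing leaves of Arabidopsis thaliana sampled at 24 h were compared with those sampled at 12 h, 4 arrays against 4, out of the 26 arrays of the series. The 8 arrays were taken by their labels alone, and the comparison was described across every probe set that was not a hybridisation control. Both groups held wild-type Col-0 leaves of insertions 19 to 21, from plants on Humax compost in a growth room at 20°C and 50% humidity under ambient CO2 and ambient light, with a light period of 10 h. The other arrays held developing leaves at 2, 4, 48 and 96 h, with 4 arrays each, and mature leaves at 24 h, with 2 arrays. The clock hour at which the count of hours began is not in the labels, so it is not known which of the samplings fell in the light. The labels also do not state whether replicates were separate plants, so p-values reflect only how these samples scatter, which may be technical. Time of day and the added 12 h of leaf age cannot be told apart by this comparison alone.

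Samplings 12 h apart lie on opposite sides of a daily cycle. In Arabidopsis the circadian clock is a loop of transcription factors that repress one another in turn, and it sets, together with light and sugar supply, the hour at which a large share of leaf genes is expressed. In the light a leaf fixes carbon and stores part of it as starch, which it breaks down through the night. Growth by cell expansion and by new protein synthesis draws on that supply.

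Levels are log2 of the deposited intensity plus a small pseudocount, and differences are log2 values at 24 h minus 12 h with the standard error (SE) of a limma fit. The threshold was a Benjamini-Hochberg adjusted p of 0.05 over all probe sets tested, and "higher", "lower", "rose" and "fell" are used of probe sets past it. The median intensity lay between 42.4 and 45.3 in the 8 arrays. Arrays of the 12 h group correlated with each other at r between 0.974 and 0.983 across probe sets, those of the 24 h group between 0.956 and 0.981, and arrays of different groups between 0.887 and 0.915. Replicate 1 at 24 h stood apart, with a mean r of 0.958 with its group and a highest intensity of 7575, against 3339 to 6538 in the other 7 arrays. The log2 ratio of 3 prime to 5 prime control signal is a measure of RNA quality. Its means at 12 h and 24 h were 0.56 and 0.38 for GAPDH, 2.09 and 2.14 for actin and 1.63 and 1.71 for ubiquitin. The 3 prime signal was thus the stronger in both groups. It differed by -0.18 for GAPDH, 0.05 for actin and 0.08 for ubiquitin. The 2-sided exact permutation p were 0.543, 1.0 and 0.457 (0.814, 1.0 and 0.814 adjusted over the 3), where 0.0286 is the smallest possible. Of the mesophyll markers listed, RCA, which encodes Rubisco activase, had a named probe set and stood at 11.34 ± 0.14 (SD, n = 4) at 12 h and 12.01 ± 0.43 at 24 h. The root markers PYK10 and EXPA7 and the meristem marker CLV3 fell under the filter on low values, and no flower, seed, vascular or epidermal marker had a named probe set.

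A large share of the measured transcripts differed between the groups. Of 13648 probe sets tested, 2405 were higher at 24 h (17.6%) and 2831 were lower (20.7%), or 38.4% in either direction. Most of these differences were small, with a median size of 0.531 on the log2 scale, and the median difference over all probe sets was -0.03. At least 2-fold differences numbered 417 higher and 343 lower, and at least 8-fold differences 37 higher and 14 lower. All 4 values at 24 h lay above all 4 at 12 h for 14.3% of probe sets and below them for 18.1%. Without replicate 1 at 24 h, 2427 probe sets were higher and 2729 lower. In whole leaves, fewer cells of a type and less RNA per cell cannot be told apart.

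**Figure D1:**
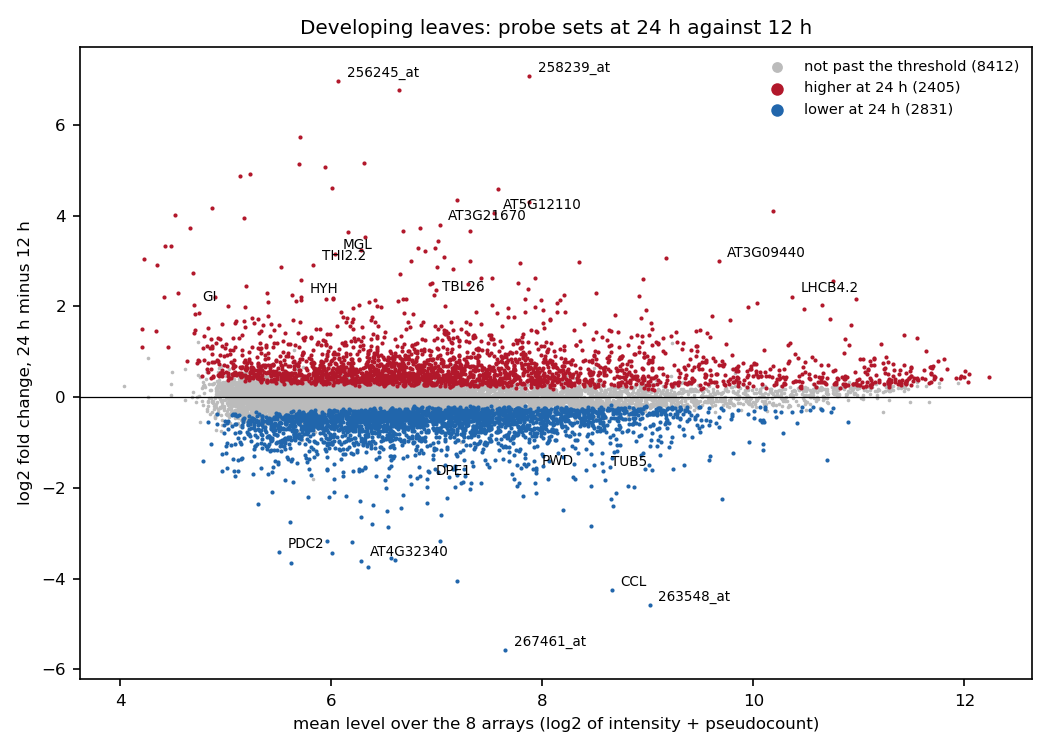
Each point is 1 of 13648 probe sets, with its mean log2 level over the 8 arrays on the x axis and its log2 fold change, 24 h minus 12 h, on the y axis; red points (2405) were higher and blue points (2831) lower at an adjusted p of 0.05. The range runs from -5.58 for probe set 267461_at to 7.09 for 258239_at, and probe sets that did not pass are grey.

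The annotation names 1 gene for 7445 of the tested probe sets, and much of the strongest change lay outside them. Among the 20 largest rises without overlap between the times, 3 named 1 gene, and among the 20 largest falls 10 did. Probe set 258239_at, which has no gene name in the annotation used, stood at 5.27, 3.84, 4.47 and 3.76 in the 12 h replicates and at 12.14, 11.09, 11.11 and 11.34 in the 24 h replicates. It was 136-fold higher at 24 h (log2 7.09, SE 0.23, adjusted p = 5.28e-19). Probe set 256245_at, also unnamed, rose 124-fold, from 2.59 ± 0.09 to 9.54 ± 0.47. At 12 h its 4 values, from 2.47 to 2.66, lay at the bottom of the scale, where the pseudocount holds the fold down. In the other direction, 267461_at fell by 5.58 on the log2 scale, from 10.44 ± 0.23 to 4.86 ± 0.35, and 263548_at by 4.59, from 11.31 ± 0.04 to 6.72 ± 0.44.

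The clock and its outputs are thinly covered, since the annotation ties few of those genes to a probe set. Of 25 clock genes listed, 3 were measured, 1 of them higher and 1 lower, beside 17.6% and 20.7% of all probe sets. GI encodes GIGANTEA, a protein of the evening part of the clock that acts in photoperiodic flowering. Its levels were 4.03, 2.99, 3.68 and 4.04 at 12 h and 5.48, 5.53, 5.83 and 6.03 at 24 h. Every 24 h value lay above every 12 h value, and GI was 4.09-fold higher at 24 h (log2 2.03, SE 0.16, adjusted p = 1.19e-10). With a pseudocount of 50% of the median intensity its difference was 1.2. GI was highest at 4 h, at 7.41 ± 0.10, so that its lowest mean of the 6 times was the one at 12 h. TIC, whose product TIME FOR COFFEE is a nuclear regulator of the clock, fell by 0.69 (SE 0.18), from 8.21 ± 0.21 to 7.52 ± 0.38. Its groups overlapped, since replicate 2 at 24 h stood at 7.94, level with the lowest 12 h value. AT5G52660, on the clock list by its locus, did not pass the threshold, with a difference of 0.23 (SE 0.14, adjusted p = 0.186).

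CCL, a clock-controlled gene named for its likeness to CCR genes, showed the largest fall of the tested probe sets that name 1 gene. It was the sole measured gene of 14 on the clock output and photoperiod list. It stood at 10.83, 10.82, 10.68 and 10.80 in the 12 h replicates and at 6.95, 6.34, 6.17 and 6.69 in the 24 h replicates. That is a 19.0-fold fall (log2 -4.25, SE 0.16, adjusted p = 1.88e-17), with a tight 12 h group and a gap of more than 3 log2 units between the groups. CCL had stood at 8.22 ± 0.42 at 2 h and 9.90 ± 0.12 at 4 h. At 48 h and 96 h it was 6.43 ± 0.23 and 6.55 ± 0.17, close to its level at 24 h.

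HYH, the HY5 homologue, encodes a bZIP transcription factor that promotes light-dependent development, and was the sole measured gene of 30 on the light signalling list. It stood at 4.52, 4.51, 4.46 and 4.96 at 12 h and at 7.0, 6.86, 6.81 and 6.58 at 24 h. The groups were far apart, and HYH was 4.59-fold higher at 24 h (log2 2.2, SE 0.16, adjusted p = 2.76e-11). Its 12 h level lay near that of 4 h, 4.42 ± 0.37, unlike that of GI.

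**Figure D2:**
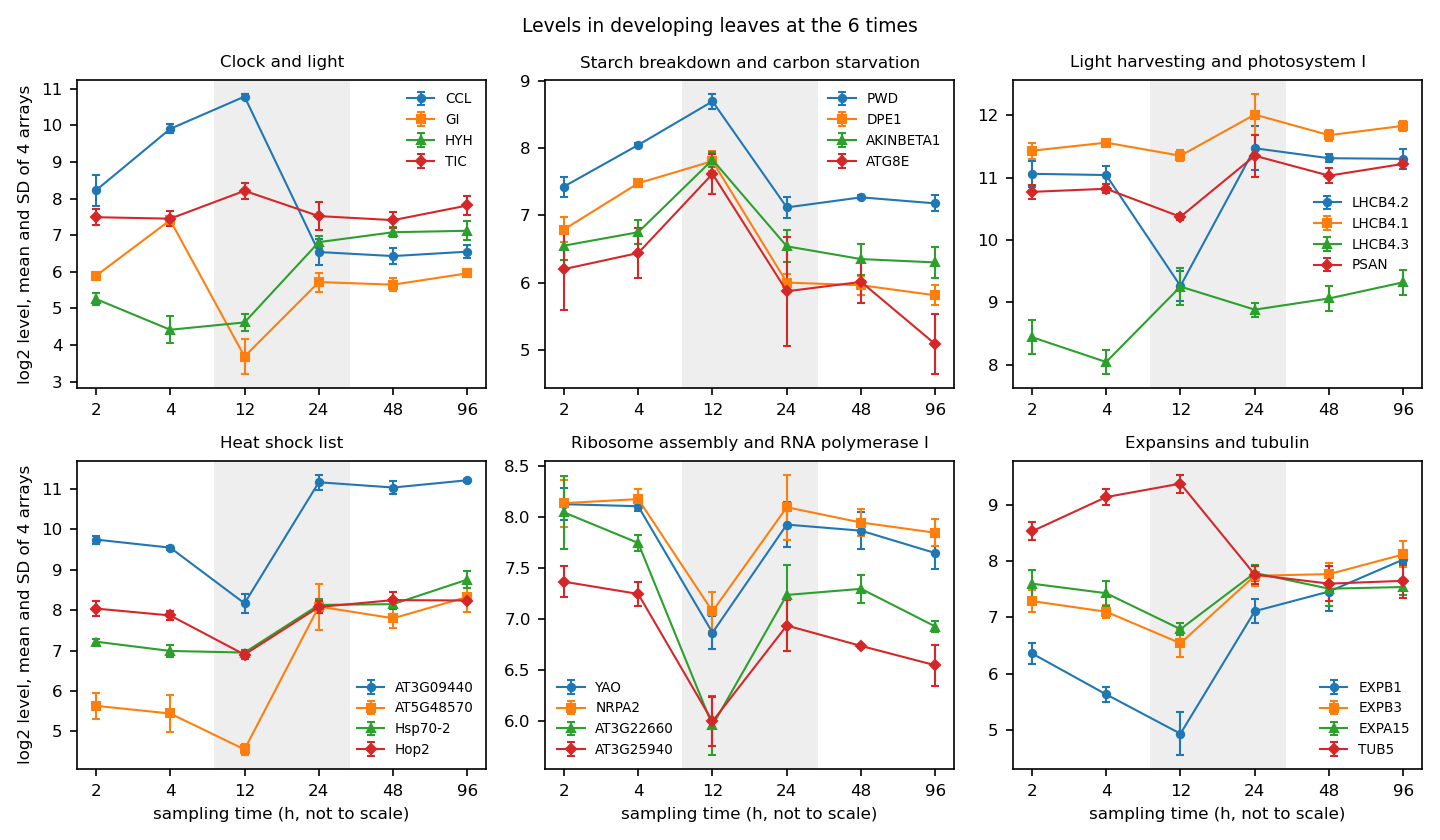
Mean log2 level with SD (n = 4 arrays) of 24 genes in developing leaves at 2, 4, 12, 24, 48 and 96 h, with the compared times shaded; the x axis is not to scale. CCL falls from 10.78 at 12 h to 6.54 at 24 h and stands at 6.43 and 6.55 at 48 and 96 h, while GI rises from 3.69 to 5.72, HYH from 4.62 to 6.81 and LHCB4.2 from 9.26 to 11.47.

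The 15 largest rises among named genes ran from 2.51 to 4.06 on the log2 scale, and the 15 largest falls from -2.23 to -4.25. AT5G12110 led the rises at 5.55, 5.82, 5.25 and 5.44 in the 12 h replicates and 10.10, 9.46, 9.35 and 9.38 in the 24 h replicates, a 16.7-fold difference (log2 4.06, SE 0.17, adjusted p = 7.48e-17). AT1G13650 rose from 3.20 ± 0.31 to 7.15 ± 0.19. Its 12 h level lay near the bottom of the scale, so its difference of 3.94 on the log2 scale depends on the pseudocount, at 4.59 with a pseudocount of 1 and 2.58 with one of 50% of the median intensity. The files and the reference give neither locus a description. AT3G21670, annotated as NPF6.4 of the nitrate and peptide transporter family, rose 14.0-fold, from 5.12 ± 0.43 to 8.93 ± 0.10. It was the sole measured gene of 23 on the nitrate and ammonium list.

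Of the other rises, MGL encodes methionine gamma-lyase, which breaks down methionine. Its values were 4.36, 4.52, 4.53 and 4.40 at 12 h and 8.05, 7.28, 7.5 and 7.63 at 24 h, 8.96-fold higher (log2 3.16, SE 0.17, adjusted p = 5.29e-14), and by 2.44 on the log2 scale with the larger pseudocount. MSRB6, a methionine sulfoxide reductase that repairs oxidised methionine, rose by 2.62 (SE 0.18). THI2.2, a thionin of the antimicrobial peptide class, rose by 2.92 (SE 0.30), from 4.37 ± 0.60 to 7.29 ± 0.67. Its arrays were widely spread in both groups, from 3.49 to 4.84 at 12 h and from 6.33 to 7.78 at 24 h. The other named rises were AT5G48570 and AT3G09440, described with the heat shock list, and AT1G66100, AT3G28220, AT2G20670, AT5G15950, AT3G14200, AT5G48490 and AT5G35970, with differences from 2.51 to 2.98.

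Among the falls after CCL, PDC2 encodes a pyruvate decarboxylase, the first step of ethanol fermentation. It stood at 7.26, 7.32, 7.31 and 6.94 at 12 h and at 4.15, 3.58, 3.68 and 3.77 at 24 h, a 10.6-fold fall (log2 -3.41, SE 0.28, adjusted p = 2.19e-10), or -2.40 with the larger pseudocount. AT4G32340 fell 12.2-fold, AT3G60420 11.7-fold and AT1G56300 10.8-fold. AT3G60420 was the least even of these at 24 h, at 3.58, 4.86, 5.08 and 5.65, and its difference was -3.15 without replicate 1 at 24 h against -3.55 with it. It also differed in its later course, at 5.80 ± 0.37 at 48 h and 7.92 ± 0.43 at 96 h. AT5G08520 and AT5G27280 likewise spread over more than 2 log2 units at 24 h, with SDs of 1.2 and 1.06, yet all of their 24 h values lay below the 12 h values. The falls of AT3G62550, AT3G15630, AT4G30650, AT1G56220, AT4G16146, AT1G26665, AT1G25275 and AT2G21130 ran from -2.23 to -3.18.

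The 12 h mean was the lowest of the 6 times for all 15 rises and the highest for 14 of the 15 falls, the exception being AT1G56300, which was higher at 4 h (8.43 ± 0.15). These genes were chosen in part by their 12 h level, so this describes them and is not a test. At 48 h, a day after the 24 h sampling, the mean lay within 1 log2 unit of the 24 h mean for all 15 rises and for 14 of the falls. At 96 h it did so for all 15 rises and 12 of the falls. The share of all probe sets that did so is not given here, so these counts only describe the chosen genes.

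**Figure D3:**
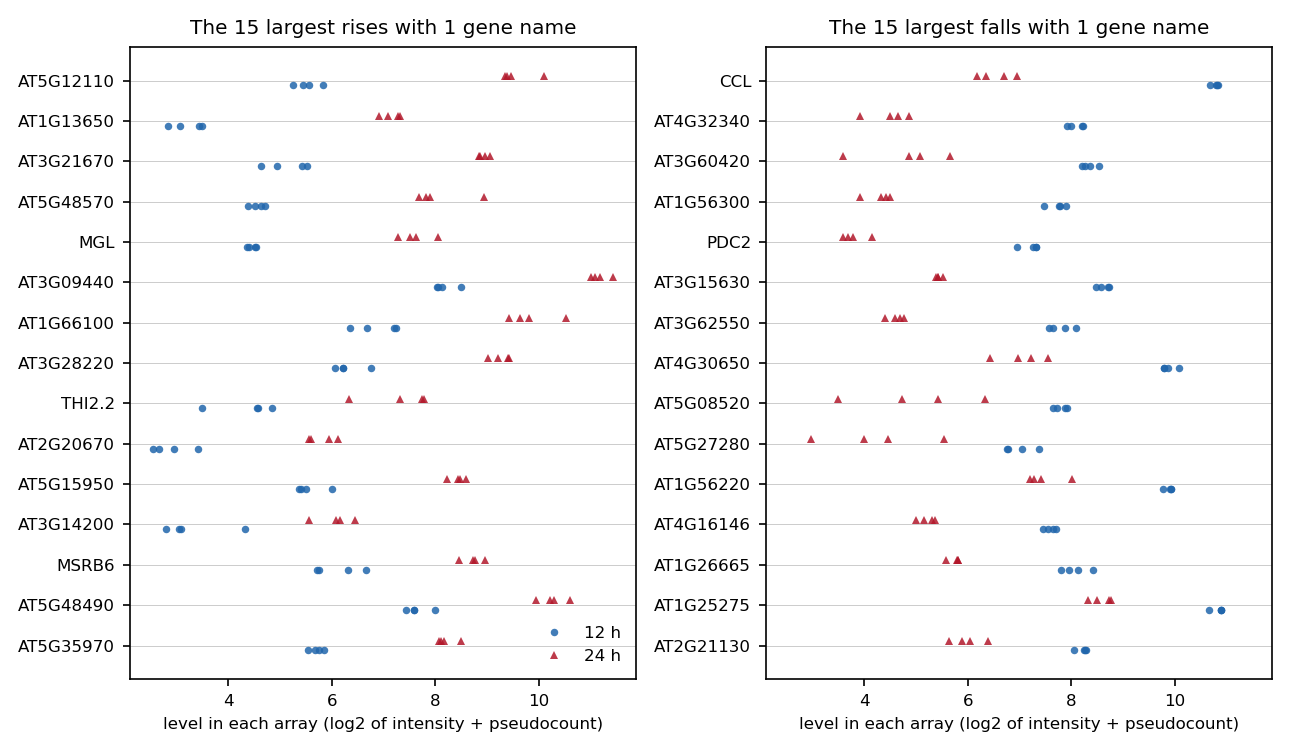
Log2 level of each array for the 15 largest rises (left) and the 15 largest falls (right) among probe sets that name 1 gene; circles are the 4 arrays at 12 h and triangles the 4 at 24 h. No gene shown has overlapping groups, which the choice of genes required, and the widest 24 h spreads are those of AT5G08520 and AT5G27280.

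Genes of starch breakdown were lower at 24 h. Both measured genes of 16 listed fell, beside 20.7% of all probe sets. PWD, the phosphoglucan water dikinase that phosphorylates the starch granule surface so that enzymes can open it, stood at 8.69, 8.69, 8.85 and 8.58 at 12 h and at 7.10, 7.15, 6.92 and 7.31 at 24 h. It fell by 1.58 (SE 0.09, adjusted p = 9.29e-14), or 2.99-fold. DPE1, the plastid disproportionating enzyme that processes short glucans from starch, fell by 1.82 (SE 0.11), from 7.81 ± 0.15 to 6.0 ± 0.13. For starch synthesis, 2 genes of 16 were measured and neither passed, at 0.24 for APL3, a large subunit of ADP-glucose pyrophosphorylase, and 0.15 for the branching enzyme gene SBE2.2.

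Genes known to rise when leaves run short of carbon were mostly lower. On that list 5 of 6 measured genes were lower and 0 higher, beside 20.7% and 17.6% of all probe sets. Their median difference was -1.05, beside -0.03 over all probe sets. AT3G15630, on the list by its locus, had even groups, at 8.70, 8.48, 8.72 and 8.57 at 12 h and 5.42, 5.52, 5.43 and 5.39 at 24 h, a 9.03-fold fall. AKINBETA1, which encodes a regulatory subunit of the SnRK1 kinase that responds to energy shortage, fell by 1.29 (SE 0.15). ATG8E, for a protein that coats autophagosomes, fell by 1.75 (SE 0.31), with 24 h values that spread from 4.85 to 6.82. MCCA and MCCB, the subunits of methylcrotonyl-CoA carboxylase in leucine breakdown, fell by 0.82 (SE 0.16) and 0.55 (SE 0.13). IVD, for the preceding enzyme isovaleryl-CoA dehydrogenase, did not pass, at -0.29.

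Lists drawn up after fold changes had been seen extend these observations, and their direction is not independent evidence. Their counts stand beside 20.7% lower and 17.6% higher over all probe sets. Of 11 measured autophagy genes, 7 were lower and 0 higher, with a median of -0.66. Autophagy carries cell contents to the vacuole for breakdown. Besides ATG8E, the lower genes were APG8H (-1.07), ATG8D (-1.03), ATG8F (-0.89), ATG8C (-0.71), APG8A (-0.66) and ATG3 (-0.50), the last for the enzyme that attaches ATG8 to lipid. Of 12 measured genes for ESCRT and vacuolar sorting, which shape the membranes that carry proteins to the vacuole, 8 were lower and 0 higher (median -0.44), led by VPS20.1 (-0.87). Without replicate 1 at 24 h, 6 of these 12 were lower. In branched-chain amino acid breakdown 5 of 10 were lower and 1 higher (median -0.40). The carbon starvation list also holds genes of leucine breakdown, MCCA, MCCB and IVD, so the counts of these lists are not separate. ALDH6B2, an aldehyde dehydrogenase of valine breakdown, fell from 8.48 ± 0.08 to 7.37 ± 0.26, and ETFBETA, which passes electrons from these enzymes to the respiratory chain, from 7.21 ± 0.12 to 6.25 ± 0.31.

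Sugar transport genes moved the other way where they passed the threshold. Of 8 measured genes for sucrose, trehalose phosphate and sugar transport, 4 were higher and 0 lower, beside 17.6% and 20.7% of all probe sets. All 4 encode SWEET sugar transporters. SWEET2 rose by 0.81 (SE 0.12), SWEET16 by 0.72 (SE 0.16), SWEET17 by 0.66 (SE 0.17) and SWEET1 by 0.58 (SE 0.10), so each change was under 2-fold. SWEET4 (-0.28) and SWEET11 (0.01) did not pass.

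**Figure D4:**
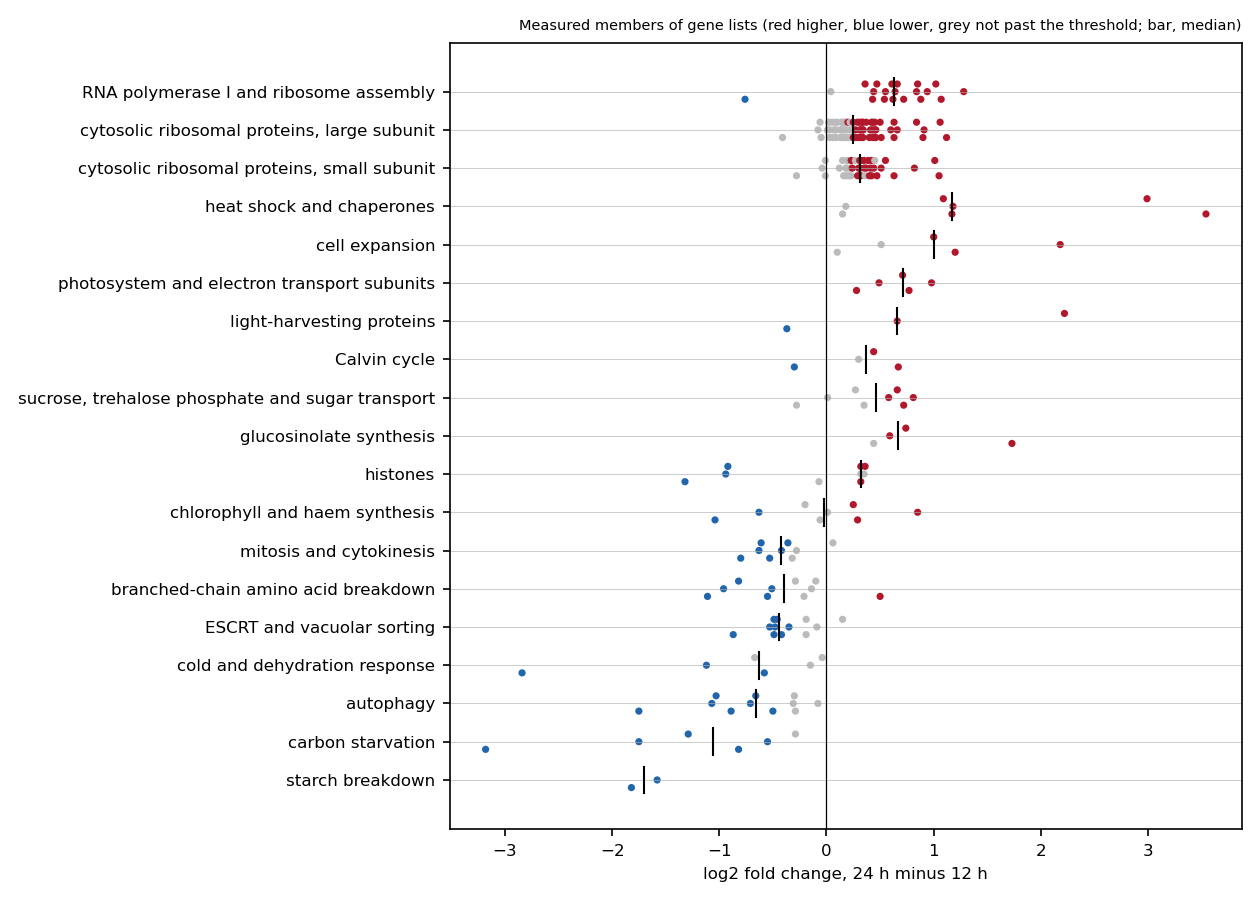
Log2 fold change, 24 h minus 12 h, of each measured member of 19 gene lists; red points were higher and blue points lower at an adjusted p of 0.05, grey points did not pass, and the black bar is the median of the list. The median lies at 1.17 for heat shock and chaperones and at -1.70 for starch breakdown, beside -0.03 over all probe sets.

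Of 20 light-harvesting genes listed, 3 were measured, all of the LHCB4 family, and 2 were higher and 1 lower at 24 h. Their median of 0.66 was 0.16 under quantile normalisation. Over all probe sets 17.6% were higher and 20.7% lower. LHCB4 proteins, also called CP29, are minor antenna proteins that link the light-harvesting complex to photosystem II. LHCB4.2 stood at 9.62, 9.14, 9.10 and 9.16 at 12 h and at 11.97, 11.24, 11.21 and 11.47 at 24 h, a 4.65-fold rise (log2 2.22, SE 0.15, adjusted p = 1.92e-12). LHCB4.1 rose by 0.66 (SE 0.12), and LHCB4.3 fell by 0.37 (SE 0.14, adjusted p = 0.038) with overlapping groups. The call of LHCB4.3 was lost without replicate 2 at 12 h (-0.27, adjusted p = 0.152), and without replicates 3 and 4 at 12 h or 2 and 3 at 24 h, each left out in turn.

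All 5 measured genes for nuclear-encoded photosystem and electron transport subunits were higher, beside 17.6% of all probe sets. The median over the 5 was 0.71, and quantile normalisation lowered it to 0.37. They were PSAN (0.98, SE 0.11) and PSAE-1 (0.77, SE 0.16) of photosystem I, PSBY (0.71, SE 0.10) and PSBW (0.49, SE 0.15) of photosystem II, and ATPC1 (0.28) of the ATP synthase. Replicates 1 and 4 at 24 h held the highest values of PSAN, at 11.74 and 11.51, against 10.98 and 11.17 in the other two. Without replicate 1 at 24 h, and also under quantile normalisation, 3 of these 5 genes were higher and 0 lower. PSBW lost its call in both, at 0.28 (adjusted p = 0.0547) and 0.12 (adjusted p = 0.289). Of 4 measured Calvin cycle genes 2 were higher and 1 lower, beside 17.6% and 20.7% of all probe sets. Their median of 0.37 was 0.09 under quantile normalisation. RCA rose by 0.67 (SE 0.15) and SBPASE, for the Calvin cycle enzyme sedoheptulose bisphosphatase, by 0.44 (SE 0.11). AT1G56190, on the list by its locus, fell by 0.30 (SE 0.11, adjusted p = 0.0359) with overlapping groups. Its call was lost without replicate 1 or 2 at 12 h or replicate 2 or 3 at 24 h, where the difference lay between -0.28 and -0.22. NdhL, a subunit of the chloroplast NDH complex of cyclic electron flow, fell by 0.49 (SE 0.13), and its replicate 1 at 24 h, at 8.68, lay within the 12 h range of 8.51 to 8.82.

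Few transcripts encoded in the plastid itself passed the threshold. Of 68 measured, 5 were higher and 1 lower, both well under the background of 17.6% and 20.7%, and their median was 0.17. The 24 h arrays differed among themselves, with psaB, for a core protein of photosystem I, at 12.40, 11.27, 11.81 and 12.27 in the 4 replicates. Without replicate 1 or 4 at 24 h, or without replicate 1 at 12 h, 0 of the 68 were higher, without replicate 2 at 24 h 19 were, and without any other array 3 to 6. Quantile normalisation left 0 higher and 3 lower. With the 12 h and 24 h arrays alone in the fit, 0 were higher.

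Chlorophyll synthesis did not move as a group. Of 8 measured genes 3 were higher and 2 lower, beside 17.6% and 20.7% of all probe sets. The median was -0.03, as it was over all probe sets. PORB, the light-dependent protochlorophyllide oxidoreductase, stood at 10.63, 10.41, 10.71 and 10.69 at 12 h and at 9.69, 9.62, 9.38 and 9.63 at 24 h, a fall of 1.04 (SE 0.14, adjusted p = 1.8e-06). HEMA2, for the glutamyl-tRNA reductase that opens the pathway, fell by 0.63 (SE 0.16). AT1G74470, annotated as geranylgeranyl reductase, which supplies the chlorophyll side chain, rose by 0.85 (SE 0.11), and CHLM, a methyltransferase of the magnesium branch, by 0.29 (SE 0.08). With quantile normalisation 1 gene was higher and 4 were lower.

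Heat shock and chaperone genes were higher at 24 h, 5 of 7 measured and 0 lower, beside 17.6% and 20.7% of all probe sets. Their median was 1.17. These proteins keep others folded under heat and also during normal growth. AT3G09440, on the list by its locus, stood at 8.13, 8.04, 8.50 and 8.02 at 12 h and at 11, 11.08, 11.18 and 11.43 at 24 h, a 7.97-fold rise (log2 2.99, SE 0.11, adjusted p = 4.79e-18). AT5G48570, annotated as the FK506-binding protein FKBP65 or ROF2, a prolyl isomerase, rose 11.6-fold, from 4.55 ± 0.14 to 8.09 ± 0.57. Its replicate 1 at 24 h, at 8.94, lay above the other three, which ran from 7.69 to 7.90. Hsp70-2 (1.17, SE 0.09) and the co-chaperone gene Hop2 (1.18, SE 0.11) were also higher, and Hop1 and ATHSP22.0 did not pass, at 0.15 and 0.18. The related genes Fes1A, Fes1B and Fes1C, for exchange factors of HSP70, diverged. Fes1A, which is on the list, rose by 1.09 (SE 0.15). Fes1B fell by 1.22 (SE 0.16) and Fes1C by 1.13 (SE 0.12), both named after their values were seen.

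Cold-response genes were lower where they passed, 3 of 6 measured and 0 higher, beside 20.7% and 17.6% of all probe sets. Their median was -0.62. AT4G30650, on the list by its locus, stood at 10.08, 9.78, 9.79 and 9.86 at 12 h and at 7.22, 7.55, 6.96 and 6.42 at 24 h, a 7.16-fold fall (adjusted p = 1.47e-12). COR15B, for a chloroplast protein that protects membranes in freezing, fell by 1.12 (SE 0.19). STZ, a zinc finger repressor of the stress response, fell by 0.58 (SE 0.20, adjusted p = 0.0257), and its call was lost without replicate 3 at 24 h (-0.42, adjusted p = 0.119), and without replicate 4 at 24 h or 2 or 3 at 12 h. COR15A did not pass, at -0.67.

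Genes for making ribosomes were higher at 24 h, on lists drawn up after fold changes had been seen. Of 20 measured genes for RNA polymerase I and ribosome assembly, 18 were higher and 1 lower, beside 17.6% and 20.7% of all probe sets. Their median was 0.63. RNA polymerase I transcribes the ribosomal RNA precursor, and the other proteins cut, fold and export the growing subunits. NRPA2, for its second largest subunit, stood at 6.87, 6.98, 7.29 and 7.19 at 12 h and at 7.62, 8.22, 8.26 and 8.28 at 24 h, 2.02-fold higher (log2 1.02, SE 0.13, adjusted p = 4.65e-07). YAO, a nucleolar WD-repeat protein, rose by 1.07 (SE 0.11), AT3G22660 by 1.28 (SE 0.15) and AT3G25940 by 0.94 (SE 0.13). In NRPA2, YAO and AT3G22660 replicate 1 at 24 h was the lowest of its group, yet above every 12 h value. DIM1B, an rRNA dimethylase, was the exception and fell by 0.76, while its paralogue DIM1A did not pass (0.04).

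Cytosolic ribosomal protein genes shifted less. Their counts stand beside 17.6% higher and 20.7% lower over all probe sets. Of 76 measured large-subunit genes, 40 were higher and 0 lower, with a median of 0.25. Of 43 small-subunit genes, 25 were higher and 0 lower, with a median of 0.31. These counts changed with the scaling: under quantile normalisation 21 large-subunit genes were higher and 9 lower with a median of 0.02, and 14 small-subunit genes higher and 2 lower with a median of 0.07. The largest differences were those of AT1G15250 (1.12), AT3G06680 (1.06), AT3G57490 (1.05) and AT5G39850 (1.01). AT3G06680 stood at 9.21, 8.70, 8.65 and 8.61 at 12 h and at 9.98, 9.64, 9.77 and 10.04 at 24 h. Ribosomal proteins are encoded by families of near-identical genes, so a probe set may read several copies.

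Genes of cell division were split. Of 9 measured genes for mitosis and cytokinesis, 6 were lower and 0 higher, beside 20.7% and 17.6% of all probe sets. Their median was -0.42. With 1 array left out at a time, the number lower ran from 4 to 7. The lower genes included 3xHMG-box2 (-0.80, SE 0.15) and 3xHMG-box1 (-0.53, SE 0.16), whose products bind condensed chromosomes. They also included the Aurora kinase gene AUR2 (-0.63, SE 0.16) and TOPII, for topoisomerase II (-0.61, SE 0.18). The call of 3xHMG-box1 was lost without replicate 1 at 24 h (-0.35, adjusted p = 0.0615) and without replicate 4 at 12 h. Of 5 measured genes for DNA replication and chromatin assembly, 3 were higher and 0 lower. PRL, or PROLIFERA, for a subunit of the MCM helicase, rose by 0.84 (SE 0.11), from 7.28 ± 0.09 to 8.13 ± 0.20. CHR17, a chromatin remodeller, rose by 0.48 (SE 0.13) and ICU2, for the catalytic subunit of DNA polymerase alpha, by 0.36 (SE 0.14, adjusted p = 0.0447). The call of ICU2 was lost without replicate 2 at 24 h (adjusted p = 0.0945) and without 5 other arrays in turn.

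Of 9 measured histone genes 3 were higher and 3 lower, beside 17.6% higher and 20.7% lower over all probe sets. Without replicate 1 at 24 h or replicate 3 at 12 h 0 were higher, and without replicate 3 at 24 h or replicate 2 at 12 h 1 was. The lower 3 were AT2G28720 (-1.32, SE 0.23), AT2G30620 (-0.94, SE 0.08) and AT1G06760 (-0.92, SE 0.09). AT2G30620 stood at 9.74, 9.52, 9.36 and 9.64 at 12 h and at 8.54, 8.62, 8.67 and 8.68 at 24 h. Both groups of AT2G30620 were tight and well apart.

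Of the genes listed for cell expansion, 3 of 5 measured were higher and 0 lower, beside 17.6% and 20.7% of all probe sets. Their median was 1.00. All 3 encode expansins, which loosen the cell wall. Over the expansin family read by name, 3 of 7 measured genes were higher and 0 lower, with a median of 0.51. Without the filter on low values, 5 of the family were higher and 2 lower, with a median of 0.1. EXPB1 stood at 5.29, 4.43, 4.86 and 5.13 at 12 h and at 6.89, 7.03, 7.13 and 7.38 at 24 h, a 4.52-fold rise (log2 2.18, SE 0.17, adjusted p = 5.07e-11). EXPB3 rose by 1.2 (SE 0.14) and EXPA15 by 1.00 (SE 0.15). EXPA4 and EXPA8 did not pass, at 0.10 and 0.51. The wall genes of the trichome birefringence-like family mostly did not pass (2 higher and 2 lower of 16), though TBL26 rose by 2.25 (SE 0.21), from 5.85 ± 0.28 to 8.10 ± 0.08. Of 7 tubulin genes 1 was higher, a call lost without any 1 of 4 arrays, and 2 were lower. The tubulin count is near the 38.4% of all probe sets called in either direction, and the trichome birefringence-like count is under it. The beta-tubulin gene TUB5 fell 3.07-fold, from 9.38 ± 0.16 to 7.76 ± 0.16. GID1A, for a gibberellin receptor, fell by 1.12 (SE 0.21).

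For glucosinolate synthesis, which makes sulphur-containing defence compounds, 3 of 4 measured genes were higher and 0 lower (median 0.67). The shares over all probe sets were 17.6% higher and 20.7% lower. BCAT4, the aminotransferase that starts methionine chain elongation, rose 3.33-fold, from 4.38 ± 0.40 to 6.11 ± 0.30, AT2G31790 rose by 0.74 (SE 0.19) and GSTU20 by 0.59 (SE 0.20, adjusted p = 0.0208). The call of GSTU20 was lost without replicate 1 at 24 h (0.36, adjusted p = 0.128) and without replicate 4 at 12 h. Of 3 measured flavonoid genes 2 were higher, the flavonol glycosyltransferase genes UGT78D2 (0.97, SE 0.16) and UGT78D1 (0.90, SE 0.12). GR1, for glutathione reductase, stood at 7.04, 7.31, 7.05 and 7.35 at 12 h and at 8.50, 8.90, 8.93 and 8.94 at 24 h, a 3.1-fold rise (adjusted p = 5.68e-11). The stomatal lineage genes SPCH (0.47), FMA (0.19) and STOMAGEN (0.03) did not pass, though 1 of the 3 was higher without replicate 1 or 2 at 24 h or replicate 3 at 12 h.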

How the data were processed

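The authors deposited 1 intensity per probe set and array, on a linear scale, made with MAS5 per the submitters' processing notes; the version, background settings and detection calls are not given in the sources used here. Every array had the same trimmed mean, and this scaling was kept. Of 22810 probe sets, 64 controls were left out. Values were taken as log2 (intensity + 4.35, 10% of the median), and probe sets under the 40th percentile of the mean over 26 arrays were left out, which left 13648. limma 3.58.1 in R 4.3.3 fitted the 7 groups together, with a variance trend and Benjamini-Hochberg adjustment (threshold 0.05). The variance of a probe set was shared over the groups, so an SE can understate the spread at 24 h. The median SD was 0.193 at 24 h and 0.156 at 12 h. With the 12 h and 24 h arrays alone, 4386 probe sets were called, against 5236. The fit was tested on simulated data. The number of arrays limits the precision.

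A gene's probe set is the one with the highest mean. Named genes are the 15 largest rises and falls that passed, name 1 gene and do not overlap, every measured member of the clock, clock output and light signalling lists, up to 4 called members of other lists, and up to 2 unnamed probe sets each way. Names come from the platform annotation, updated through RefSeq (13436 of 13513 matched). Plastid genes were found by their RefSeq locus tags. Members and lists were chosen with earlier results of these data known, and no set test was made. Alternatives changed the pseudocount, filter, normalisation, arrays fitted, variance model and covariates. The labels do not say what a replicate number shares, so the numbers were not taken as pairs in the main fit. Same-numbered 12 h and 24 h arrays deviated from their group means with r of 0.226, 0.0184, 0.092 and 0.0332. Arrays of different number gave r from -0.225 to 0.241. Promoter sequences were not analysed here.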

Additional observations from a re-analysis of the deposited data

Results flagged for a closer look

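In 302 groups of 4 arrays of the named probe sets and control ratios, 24 held 1 array whose gap to the nearest other passed Dixon's critical ratio to the group's range, or 7.95%, where chance gives about 1 in 20. Of these, 11 were replicate 1 at 24 h. At 12 h, the log2 level of replicate 1 stood apart from the other arrays for AT1G25275 (10.66 against 10.88 to 10.89), LHCB4.2 (9.62 against 9.10 to 9.16), AT3G06680 (9.21 against 8.61 to 8.70), SCPL45 (7.57 against 7.88 to 7.94) and UBC18 (6.80 against 7.08 to 7.12). At 12 h, the log2 level of replicate 3 stood apart from the other arrays for AT1G56220 (9.77 against 9.90 to 9.92) and AT2G21130 (8.05 against 8.24 to 8.28). At 12 h, the log2 level of replicate 4 stood apart from the other arrays for PDC2 (6.94 against 7.26 to 7.32) and HYH (4.96 against 4.46 to 4.52). At 24 h, the log2 level of replicate 1 stood apart from the other arrays for AT5G12110 (10.10 against 9.35 to 9.46), AT5G48570 (8.94 against 7.69 to 7.90), UGT78D2 (7.97 against 8.26 to 8.30), NdhL (8.68 against 7.95 to 8.04), ICU2 (5.46 against 5.87 to 5.93), GR1 (8.50 against 8.90 to 8.94), AT3G22660 (6.81 against 7.37 to 7.41), NRPA2 (7.62 against 8.22 to 8.28), ATG8F (8.51 against 8.08 to 8.10), SCPL49 (7.21 against 7.79 to 7.90) and 256245_at (10.24 against 9.23 to 9.40). At 24 h, the log2 level of replicate 2 stood apart from the other arrays for psbH (9.79 against 10.61 to 10.69). At 24 h, the log2 level of replicate 4 stood apart from the other arrays for AT1G26665 (5.57 against 5.78 to 5.81), CYP71B22 (6.31 against 6.85 to 6.89) and TBL39 (5.73 against 6.47 to 6.52).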

How the results depend on the processing

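Across 19 alternatives, 18 of the 148 named probe sets lost their call in some setting, and 3 turned direction in some setting. Calls in either direction numbered 4139 to 5464 in the 11 alternatives other than leaving out an array, and 4684 to 5156 without 1 array at a time. The count at least 2-fold lower, 343, was 206 with a filter at the 60th percentile and 224 with a pseudocount of 50% of the median, both of which hold fewer or smaller differences by construction. That pseudocount also moved 17 of 148 named fold changes by over 1.5 times on the linear scale. Among them were AT2G20670 (log2 2.91 to 1.56) and 256245_at (log2 6.96 to 5.03). A pseudocount of 1 moved 4. Quantile normalisation turned the direction of AT3G11630 (-0.11), atpB (-0.05) and psaB (-0.04), all at high levels; the cause was not tested. The labels do not say what same-numbered arrays share, and the fit with the replicate block called 5423 probe sets against 5236. The actin ratio difference, 0.05, ran from -0.10 to 0.23 without 1 array at a time, turning negative at -0.02, -0.04, -0.07 and -0.10. GAPDH ran from -0.37 to -0.07 and ubiquitin from 0.01 to 0.13. No detection calls were available, so levels near the bottom of the scale may be background.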

Other observations

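Further named genes with at least 2-fold differences were chosen after their values were seen. AT5G61590, annotated as DEWAX, a repressor of wax synthesis, fell by 1.81 on the log2 scale (SE 0.18), from 8.63 ± 0.15 to 6.83 ± 0.42 (SD, n = 4). WSD1, for a wax ester synthase, rose by 2.09 (SE 0.22), from 5.31 ± 0.35 to 7.40 ± 0.23. AFR, an F-box protein of far-red light signalling, rose by 2.04 (SE 0.15), from 5.24 ± 0.28 to 7.27 ± 0.29. AT2G26690, annotated as NPF6.2 and so of the same transporter family as AT3G21670, rose by 2.15 (SE 0.15). CYTC-2, for a cytochrome c of the mitochondrial respiratory chain, rose by 2.37 (SE 0.13), from 5.81 ± 0.17 to 8.18 ± 0.14.

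Genes for the actin-bundling LIM proteins WLIM2a and WLIM1 fell by 1.58 (SE 0.10) and 1.42 (SE 0.10). THIC, an enzyme of thiamin synthesis, fell by 1.28 (SE 0.12), and RR16, a response regulator of cytokinin signalling, by 1.11 (SE 0.12). XTH32, for a wall-remodelling xyloglucan enzyme, rose by 1.14 (SE 0.09).

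Families were read from the annotation after fold changes were seen, and their counts stand beside 17.6% higher and 20.7% lower over all probe sets, or 38.4% in either direction. The counts for serine carboxypeptidase-like genes and ubiquitin-specific proteases are near that last share. Of 14 measured serine carboxypeptidase-like genes 5 were lower and 1 higher, led by SCPL49 (-1.83, SE 0.13) and scpl35 (-1.59, SE 0.11). Among 7 CYP71B cytochrome P450 genes 4 were lower and 1 higher. CYP71B22 stood at 7.88, 8.27, 8.55 and 8.35 at 12 h and at 6.86, 6.89, 6.85 and 6.31 at 24 h, while CYP71B26 stood at 4.66, 4.90, 4.70 and 4.89 at 12 h and at 6.25, 6.55, 6.27 and 6.89 at 24 h. These paralogues thus differed in opposite directions without overlap between the times. Of 7 beta-glucosidase genes 2 were higher and 3 lower, from BGLU40 (1.61, SE 0.10) to BGLU15 (-1.0, SE 0.15). Of 11 ubiquitin-conjugating enzyme genes 5 were lower and 1 higher, and of 12 ubiquitin-specific protease genes, which remove ubiquitin, 4 were higher and 1 lower.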
